A study of Mus musculus with 8 samples.

Results

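Interferon-stimulated genes are the genes that cells switch on after type I, II or III interferon reaches its receptor, and 37 of them were followed here through interleukin 7 (IL-7) withdrawal and microRNA inhibition in a mouse pre-B cell line. The members were taken by symbol, as the array's probes that carry one of the 37 listed names, and they are 37 of 34741 named features on the array. They comprise 1 transcription factor, 5 nucleic acid sensors, 14 antiviral effectors, 4 GTPases, 6 genes of the ISG15, TRIM and ADP-ribosylation systems, 3 genes of antigen processing and 4 others. All groups used wk3, a pre-B cell line of genotype SLP-65-/-, which lacks an adaptor of the pre-B cell receptor and grows in IL-7. The cells were transduced with a retrovirus and selected with puromycin, and carried a scrambled sponge or a miR-15 sponge, a transcript that soaks up the miR-15 family of microRNAs (miR-16, miR-195, miR-322 and miR-497 beside miR-15a and miR-15b). Each construct was sampled in excess IL-7 and after 36 hours without it, a treatment the submitters used to start differentiation. The 4 groups hold 2 arrays each, from separate experiments with newly made clones, so every p-value measures the spread between so few cultures of 1 line.

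In the classical pathway, type I interferon activates the kinases JAK1 and TYK2 and a complex that holds STAT2 and IRF9 and binds the interferon-stimulated response element (ISRE). Type II interferon acts through a palindromic STAT site, and IRF1 and other interferon regulatory factors bind ISRE-like elements as well. Many of these genes are also transcribed at a basal level without added interferon, among them the immunoproteasome and peptide transporter genes of lymphocytes.

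Signals are given as log2 of the scanner's processed intensity minus the array's 75th percentile, so 0 is the level of that percentile, and a difference of 1 is a 2-fold change. Levels are compared between groups for 1 probe and never between genes. In a limma fit over 21320 features, those with a probe above background in both replicates of some group, an adjusted p below 0.05 counted as a call. On the 8 arrays, 50.6% to 56.6% of the spots lay well above background. All arrays sat on 1 slide, where the position of an array cannot be told apart from its IL-7 state and construct. The 2 scrambled arrays with IL-7 were the least alike, with 1168 features more than 1 log2 unit apart against 193 to 519 in the other groups. Replicate 1 of these stood apart, with 277 outlier spots against 128 to 149 on the other arrays and a 75th percentile of 297 against 349 to 410. Without it 19 members were called for withdrawal in scrambled cells, 9 for withdrawal in sponge cells, 0 between the constructs in IL-7, 16 between them without it and 0 for the difference between the withdrawals, beside 43.6%, 24.1%, 0.727%, 34.9% and 0.0563% of all features.

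The 9 pre-B cell markers were well above background on all 8 arrays, with 5 higher and 1 lower after withdrawal in scrambled cells, 4 and 1 in sponge cells, and 5 lower in sponge than in scrambled cells without IL-7. Blnk, the gene of SLP-65, was among them at 7.16 to 8.24, and its probe was not placed against the deletion, so it does not check the genotype. Markers of other lineages were present in part. Cd3e and Cd4 of T cells, Csf1r, Itgam and Adgre1 of myeloid cells, Siglech and Cox6a2 of plasmacytoid dendritic cells, Klrb1c and Prf1 of NK cells and Col1a2 of fibroblasts were above background on all 8 arrays. Cd3g, Ncr1, Ccr9, Col1a1, Col3a1, Dcn and Pdgfra were above background on 0 arrays, Cd8a, Cd14 and Klk1 on 1, Cd3d and Lyz2 on 2 and Klrd1 on 5. Klrd1, a chain of NK cell receptors, rose by 3.05 ± 0.21 in scrambled cells, Klrb1c rose by 0.27 ± 0.08 and Prf1 fell by 0.50 ± 0.09. In sponge cells without IL-7 Klrd1 was lower than in scrambled cells, with a difference of -2.65 ± 0.21. Of 4 myeloid markers tested, 1 was called higher and 1 lower after withdrawal in scrambled cells, with a median difference of -0.17. In sponge cells 0 were higher and 1 lower, with a median of -0.60. Of these markers, Lyz2 was well above background only in sponge cells with IL-7 and was tested only through that group. Its part in these counts and medians carries no support. Of 3 NK cell markers tested, 2 were higher and 1 lower in scrambled cells, and 1 and 1 in sponge cells, with Klrd1 among the higher in both. Over all features 48.1% and 23.2% were called in these withdrawals. The part of these markers in the members' values was not tested. RNA of a whole culture cannot tell fewer cells of a type from less RNA per cell.

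Promoter windows of 7 members are shown as examples from several roles, chosen after their values were seen, whose letters around the start differ. Ifit2, Gbp3, Gbp2 and Irgm1 are among the called members of largest difference after withdrawal in scrambled cells, and the others shown are not. The sequences come from RefSeq on GRCm38.p6, which held windows for 27 of the 37 members, and run from 250 bases before the annotated start to 50 after it, on the strand of the gene. Capitals mark each match, on either strand, to the ISRE core GAAANNGAAA or to the STAT site TTCNNNGAA, which is its own reverse complement. The first 4 genes rose after withdrawal in scrambled sponge cells, and the last 3 fell in that comparison. Cmpk2, which rose there with 0 ISRE matches, and Eif2ak2, which fell there with 1, are not shown.
Gbp3 (chr3:142559794-142560093, plus strand): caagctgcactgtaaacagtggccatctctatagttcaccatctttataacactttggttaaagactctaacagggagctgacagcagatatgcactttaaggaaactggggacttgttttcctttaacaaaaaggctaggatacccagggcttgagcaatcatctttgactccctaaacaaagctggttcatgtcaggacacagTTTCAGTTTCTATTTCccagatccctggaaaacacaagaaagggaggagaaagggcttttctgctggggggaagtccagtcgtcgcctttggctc
Gbp2 (chr3:142620413-142620712, plus strand): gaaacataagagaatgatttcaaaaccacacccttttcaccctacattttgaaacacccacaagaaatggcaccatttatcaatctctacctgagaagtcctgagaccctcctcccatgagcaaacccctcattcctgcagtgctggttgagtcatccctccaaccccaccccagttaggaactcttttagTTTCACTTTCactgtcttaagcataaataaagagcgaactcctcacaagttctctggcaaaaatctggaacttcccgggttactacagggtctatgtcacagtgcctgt
Irgm1 (chr11:48871371-48871670, minus strand): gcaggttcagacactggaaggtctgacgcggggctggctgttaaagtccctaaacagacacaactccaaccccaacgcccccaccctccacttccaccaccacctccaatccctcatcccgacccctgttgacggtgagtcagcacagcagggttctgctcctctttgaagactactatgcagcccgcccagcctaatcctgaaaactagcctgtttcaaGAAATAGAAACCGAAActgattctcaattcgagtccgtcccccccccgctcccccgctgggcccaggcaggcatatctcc
Isg15 (chr4:156200769-156201068, minus strand): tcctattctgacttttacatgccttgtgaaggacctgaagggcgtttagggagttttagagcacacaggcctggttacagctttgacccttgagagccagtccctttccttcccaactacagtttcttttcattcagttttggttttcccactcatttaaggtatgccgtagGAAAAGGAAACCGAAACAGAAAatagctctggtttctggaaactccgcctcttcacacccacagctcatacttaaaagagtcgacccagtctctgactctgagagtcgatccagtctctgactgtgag
Tap1 (chr17:34187306-34187605, plus strand): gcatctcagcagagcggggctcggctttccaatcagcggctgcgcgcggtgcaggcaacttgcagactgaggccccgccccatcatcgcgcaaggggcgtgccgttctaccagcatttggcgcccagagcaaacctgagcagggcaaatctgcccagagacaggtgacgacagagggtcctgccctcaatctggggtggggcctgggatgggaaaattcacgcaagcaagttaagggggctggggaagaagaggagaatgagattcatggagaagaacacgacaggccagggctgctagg
Psmb8 (chr17:34197945-34198244, plus strand): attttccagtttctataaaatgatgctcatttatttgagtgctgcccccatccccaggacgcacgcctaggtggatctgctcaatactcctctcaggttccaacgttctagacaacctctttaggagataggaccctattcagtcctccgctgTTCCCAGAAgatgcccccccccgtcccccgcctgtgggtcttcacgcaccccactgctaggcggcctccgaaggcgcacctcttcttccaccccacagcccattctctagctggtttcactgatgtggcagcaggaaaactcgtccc
Ifit2 (chr19:34550444-34550743, plus strand): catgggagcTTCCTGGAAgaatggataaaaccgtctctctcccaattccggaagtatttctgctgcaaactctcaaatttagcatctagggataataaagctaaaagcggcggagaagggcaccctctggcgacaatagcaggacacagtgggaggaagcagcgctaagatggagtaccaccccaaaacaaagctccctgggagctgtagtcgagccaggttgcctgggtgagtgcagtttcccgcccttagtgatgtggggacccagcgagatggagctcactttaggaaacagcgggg

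Gbp3 and Gbp2 carry their first ISRE match 45 and 59 bases before the start, Irgm1 30 and Isg15 78. For Gbp3 and Ifit2 the table holds another window, further along the gene, with 0 matches of either motif. The matches of Gbp3 overlap each other, and no match of either motif is in the Tap1 window. Of the 27 members with a window, 16 (59.3%) held the ISRE core and 7 (25.9%) the STAT site. Over all 27025 genes of the same table the shares were 3.99% and 9.55%. Of the genes called higher after withdrawal in scrambled cells, 7 of the 8 with a window held the ISRE core, against 1 of the 5 called lower, 5 of the 10 not called and 3 of the 4 not tested. These are counts of few genes with no test, and Tap1 and Psmb9 among the lower ones share most of a window. In Bst2 a match of each motif overlap. A match describes letters and is not shown to be bound. Tap1 and Psmb9 are transcribed away from each other, with starts 226 bases apart, so that 275 bases of their windows are the same DNA, read on opposite strands. Psmb8 begins 970 bases after the end of Tap1 on chromosome 17. Gbp3 and Gbp2 both lie on chromosome 3 in the same sense, and genes between them were not looked up.

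The first comparison asked what the members did in control cells when IL-7 was removed. The 4 GTPases of cell-autonomous defence all rose, and so did Mx2, Cmpk2, Zbp1, Oas2, Ddx58, Parp14, Trim30a and Isg15, while the 3 antigen processing genes Psmb8, Psmb9 and Tap1 fell together with Ifit2, Dhx58 and Eif2ak2. Of 32 members tested, 12 rose and 6 fell, or 37.5% and 18.8%. Over all features 20.7% were called higher and 27.4% lower, 48.1% in either direction. The members' median difference was 0.29, beside -0.02 over all features tested. With replicate number as a block the counts were 9 higher and 6 lower, beside 21.2% and 27.1% of all features. The fall of Psmb8 is relative to the 75th percentile, since its difference was 0.03 (adjusted p = 0.72) after quantile normalization.

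**Figure D1:**
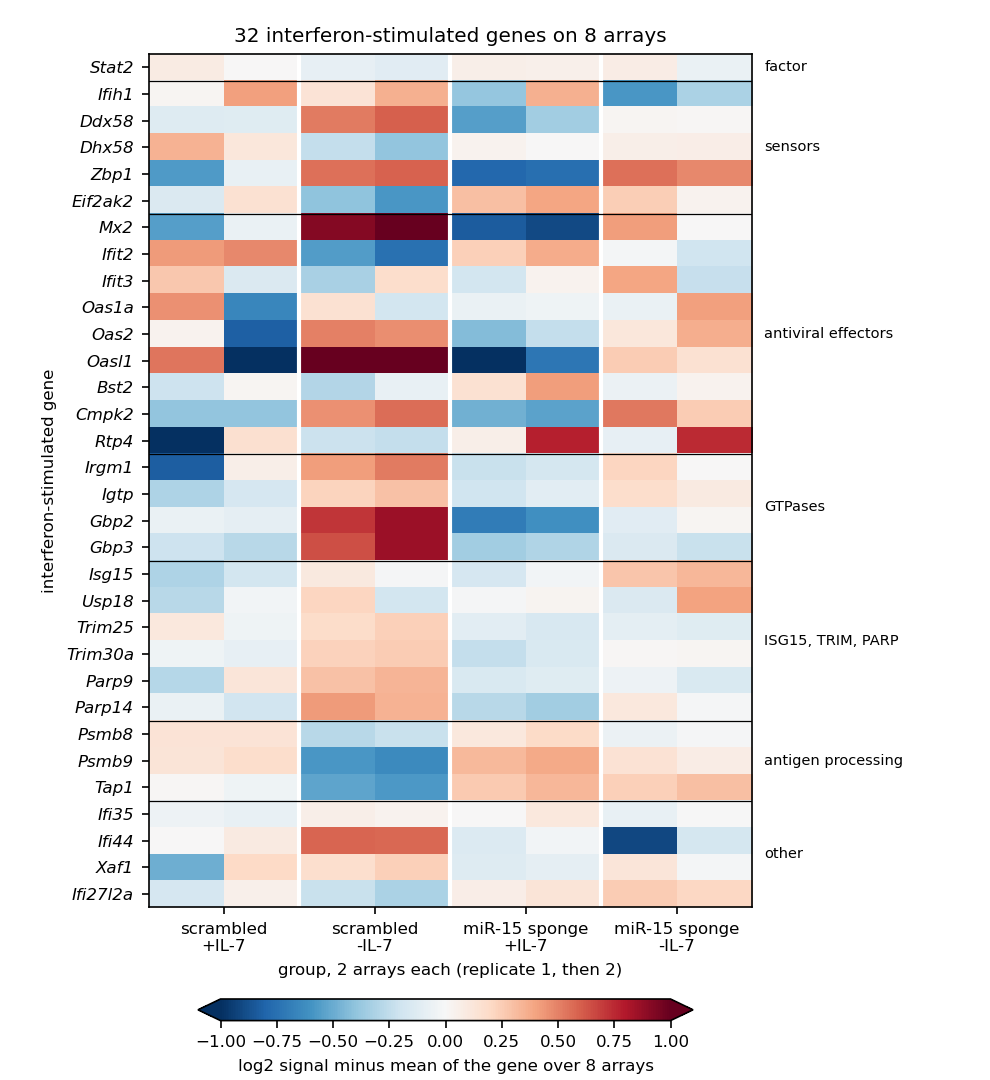
Heat map of the 32 tested members (y axis, grouped by role) on the 8 arrays (x axis, 2 per group). Colour gives log2 signal minus the gene's mean over the 8 arrays, capped at 1 in either direction. The scrambled arrays without IL-7 are highest for Gbp2, Gbp3 and Mx2 and lowest for Tap1, Psmb9 and Ifit2.

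Guanylate-binding proteins and immunity-related GTPases attack the membranes of vacuoles that hold microbes. Gbp3, a guanylate-binding protein, read 0.72 and 0.65 in scrambled cells with IL-7, 1.57 and 1.78 without, 0.58 and 0.63 in sponge cells with IL-7 and 0.78 and 0.71 without. The scrambled arrays without IL-7 stand far above the other 6. Gbp3 thus rose by 0.99 ± 0.09 in scrambled cells (1.99-fold, adjusted p = 0.000636). In sponge cells its difference was 0.14 ± 0.09 (adjusted p = 0.336), and the 2 withdrawal effects differed by -0.85 ± 0.13 (adjusted p = 0.0328, and 0.0544 with the replicate block). Gbp2, on the same chromosome, read -0.72 and -0.74 with and 0.07 and 0.21 without IL-7 in scrambled cells, and -1.35 and -1.27 with and -0.77 and -0.63 without it in sponge cells. No 2 conditions of Gbp2 compared here overlap, and the sponge arrays without IL-7 sit near the scrambled arrays with it. It rose by 0.86 ± 0.09 in scrambled cells (adjusted p = 0.000776) and by 0.61 ± 0.09 in sponge cells (adjusted p = 0.00755).

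Irgm1, which controls other immunity-related GTPases, read 1.59 and 2.48 and then 2.84 and 2.94 in scrambled cells, and 2.19 and 2.24 and then 2.63 and 2.42 in sponge cells. The withdrawal arrays lie above their controls in both constructs, but the scrambled arrays with IL-7 are 0.89 apart. Its rise in scrambled cells, 0.85 ± 0.28 (adjusted p = 0.0473), was 0.41 without replicate 1 and 1.29 without replicate 2 of that group, and its adjusted p was 0.0556 with the replicate block. The other probe of Irgm1 gave 0.38 ± 0.10. Igtp, a GTPase of the same family, rose by 0.49 ± 0.09 in scrambled cells (adjusted p = 0.00552), with 0.29 ± 0.09 in sponge cells (adjusted p = 0.0633). The difference between the withdrawal effects was below 0 for all 4 GTPases, from -0.85 to -0.20, and was called for Gbp3. It was also below 0 for 20 of the 32 members and for 11671 of the 21320 features. The other Irgm1 probe gave -0.15 ± 0.14.

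**Figure D2:**
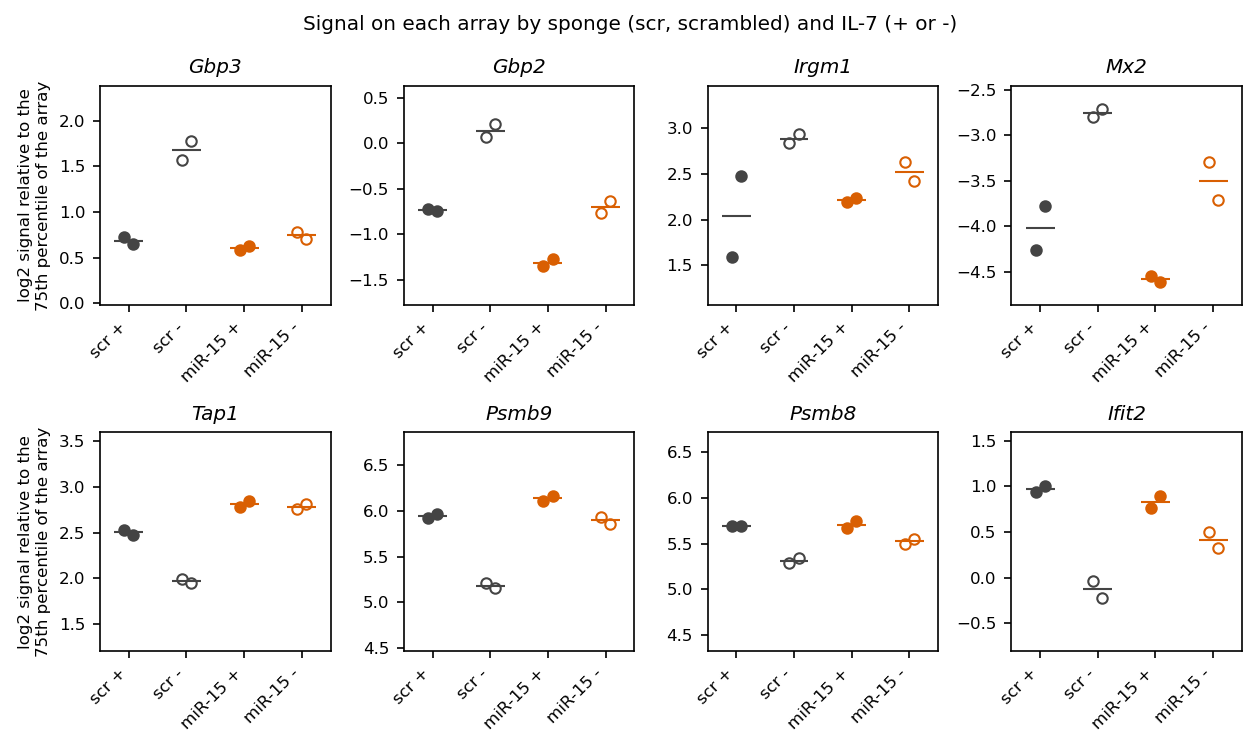
Log2 signal relative to the array's 75th percentile (y axis) for 8 members on each array, by construct and IL-7 (x axis). Points are arrays, bars are means of 2, and every panel spans the same range. Gbp3 is high in scrambled cells without IL-7, where Tap1, Psmb9 and Ifit2 are low, and Psmb8's lower position there is lost after quantile normalization (difference 0.03).

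Antigen processing genes cut and carry peptides for MHC class I. Tap1, a subunit of the transporter that moves peptides into the endoplasmic reticulum, read 2.53 and 2.48 in scrambled cells with IL-7 and 1.99 and 1.95 without it. In sponge cells Tap1 read 2.78 and 2.85 with IL-7 and 2.76 and 2.81 without it. The scrambled arrays drop without IL-7, and the sponge arrays with and without IL-7 overlap. Tap1 fell by 0.54 ± 0.07 in scrambled cells (adjusted p = 0.00187), its difference in sponge cells was -0.03 ± 0.07 (adjusted p = 0.824), and the effects differed by 0.51 ± 0.10 (adjusted p = 0.0478, and 0.0748 with the replicate block).

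Psmb9, a catalytic subunit of the immunoproteasome that shares its upstream region with Tap1, read 5.92 and 5.96 with and 5.21 and 5.15 without IL-7 in scrambled cells. In sponge cells it read 6.11 and 6.17 with and 5.93 and 5.86 without IL-7. On this probe the arrays without IL-7 lie below those with it in both constructs, but the fall was called only in scrambled cells. Psmb9 fell by 0.76 ± 0.07 in scrambled cells (adjusted p = 0.000591), against -0.24 ± 0.07 in sponge cells (adjusted p = 0.0549), a difference between effects of 0.52 ± 0.10 (adjusted p = 0.0447, and 0.0713 with the replicate block). Psmb9 has another, dimmer probe, which gave -0.01 ± 0.14 in scrambled cells and 0.15 ± 0.14 in sponge cells. After quantile normalization the difference in scrambled cells was -0.37 and still called. Psmb8, another catalytic subunit of the immunoproteasome, read 5.70 and 5.70 and 5.29 and 5.34 in scrambled cells with and without IL-7, and 5.67 and 5.75 and 5.50 and 5.55 in sponge cells. It fell by 0.38 ± 0.07 in scrambled cells (adjusted p = 0.00631), and its difference in sponge cells was -0.18 ± 0.07 (adjusted p = 0.118), but both changed sign, to 0.03 and 0.10, after quantile normalization.

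Among the antiviral effectors, 3 of 9 tested rose and 1 fell in scrambled cells. Called in either direction were 44.4% of them, beside 48.1% of all features. Mx2, a dynamin-like GTPase of the Mx family, read -4.26 and -3.78 and -2.80 and -2.71 in scrambled cells with and without IL-7, and -4.54 and -4.61 and -3.30 and -3.71 in sponge cells. It is a dim probe whose arrays without IL-7 lie above those with it in both constructs. Mx2 rose by 1.26 ± 0.20 in scrambled cells (adjusted p = 0.00367) and by 1.08 ± 0.20 in sponge cells (adjusted p = 0.0158), sizes that shrank to 0.35 and 0.18 with normexp background correction, the latter not called (adjusted p = 0.192). Cmpk2, a mitochondrial nucleotide kinase, read -2.12 and -2.12 and -1.27 and -1.17 in scrambled cells, and -2.20 and -2.26 and -1.20 and -1.47 in sponge cells. Cmpk2 rose in both constructs, by 0.90 ± 0.11 (adjusted p = 0.00131) and 0.90 ± 0.11 (adjusted p = 0.00474), with a difference between the effects of -0.01 ± 0.15 (adjusted p = 0.982). With normexp the rises were 0.58 and 0.52, both called. The other Cmpk2 probe gave 0.54 and 0.61 and was not called.

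Ifit2, an RNA-binding protein that restrains translation, went the other way. It read 0.94 and 1.01 in scrambled cells with IL-7 and -0.03 and -0.22 without, and 0.76 and 0.89 and 0.50 and 0.32 in the same order in sponge cells. The arrays without IL-7 are below those with it in both constructs and lowest in scrambled cells. Ifit2 fell by 1.10 ± 0.11 in scrambled cells (adjusted p = 0.000669) and by 0.42 ± 0.11 in sponge cells (adjusted p = 0.0402, and 0.0603 with the replicate block). The difference between these effects, 0.69 ± 0.15, was not called (adjusted p = 0.06). Oas2, of the oligoadenylate synthetase family that activates RNase L, read -4.13 and -4.98 and -3.66 and -3.69 in scrambled cells, and -4.60 and -4.40 and -4.05 and -3.80 in sponge cells. It was well above background on 1 of the 2 scrambled arrays with IL-7. Its rise of 0.88 ± 0.27 in scrambled cells (adjusted p = 0.0411) was 0.12 with normexp (adjusted p = 0.467), 0.46 without replicate 2 of the scrambled cells with IL-7, and had an adjusted p of 0.0609 with the replicate block. The other effectors tested, Ifit3, Oas1a, Oasl1, Bst2 and Rtp4, were called in no comparison.

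Several of the best known interferon-stimulated genes had no signal to follow. Mx1, Ifit1, Oasl2 and Rsad2, which encodes viperin, were well above background on 0 of 8 arrays, and Oas3 on 1, a sponge culture with IL-7 that read -3.13 against -7.46 to -5.66 on the others. These 5 were not tested. Oasl1 was well above background on both scrambled arrays without IL-7 and on 0 arrays of the other groups, and was not called (adjusted p = 0.073). It entered the fit only through the group where it is high, so its differences carry no support. The same holds for its calls without replicate 1 of the scrambled cells with IL-7, in both withdrawals and between the constructs without IL-7. Ifit3 and Ifih1 were near background as well, so a difference in these genes may not have been detectable on these arrays.

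The nucleic acid sensors divided among themselves. Zbp1, a sensor of Z-form nucleic acids that can start cell death, read -0.62 and -0.13 and 0.50 and 0.53 in scrambled cells with and without IL-7, and -0.85 and -0.81 and 0.50 and 0.42 in sponge cells. Its arrays without IL-7 are alike in both constructs and above all 4 with IL-7. Zbp1 rose by 0.89 ± 0.16 in scrambled cells (adjusted p = 0.00588) and by 1.29 ± 0.16 in sponge cells (adjusted p = 0.00519), the largest rise of a called member there, 2.44-fold. Ddx58, which encodes the viral RNA sensor RIG-I, read 1.59 and 1.60 and 2.23 and 2.31 in scrambled cells, and 1.16 and 1.37 and 1.74 and 1.73 in sponge cells. It rose by 0.68 ± 0.09 (adjusted p = 0.00181) and 0.47 ± 0.09 (adjusted p = 0.0171). Eif2ak2, the RNA-activated kinase PKR, read 0.50 and 0.80 and 0.25 and 0.07 in scrambled cells, and 0.95 and 1.05 and 0.90 and 0.69 in sponge cells. It fell by 0.50 ± 0.14 in scrambled cells (adjusted p = 0.0288), a call lost with normexp (-0.26, adjusted p = 0.297), and was not called in sponge cells (-0.21 ± 0.14). Dhx58, the RIG-I relative LGP2, fell by 0.55 ± 0.10 in scrambled cells (adjusted p = 0.00699), with 0.04 ± 0.10 in sponge cells. The difference between these effects was 0.59 ± 0.15 and not called (adjusted p = 0.0781).

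Isg15, a ubiquitin-like modifier, read 0.96 and 1.08 and 1.36 and 1.25 in scrambled cells with and without IL-7, and 1.09 and 1.23 and 1.54 and 1.59 in sponge cells. The groups with and without IL-7 do not overlap in either construct, although the steps are small. Isg15 rose by 0.29 ± 0.09 in scrambled cells (adjusted p = 0.0395, and 0.0502 with the replicate block) and by 0.40 ± 0.09 in sponge cells (adjusted p = 0.0263). Its other probe gave 0.14 ± 0.09 in scrambled cells, not called, and 0.56 ± 0.09 in sponge cells. Parp14, an ADP-ribosyltransferase, read 3.23 and 3.10 and 3.72 and 3.64 in scrambled cells, and 3.02 and 2.95 and 3.40 and 3.28 in sponge cells. It rose by 0.51 ± 0.09 (adjusted p = 0.00438) and 0.36 ± 0.09 (adjusted p = 0.0323). Trim30a, a TRIM-family regulator of inflammatory signalling, rose by 0.31 ± 0.07 in scrambled cells (adjusted p = 0.0131). Usp18, the protease that removes ISG15, and Parp9 were called in no comparison, and Trim25, a ubiquitin ligase of the RIG-I pathway, in no withdrawal. The 2 probes of Trim25 disagreed in sign, with 0.18 for the brighter and -0.39 for the other (adjusted p = 0.0191) in scrambled cells. That other probe ends in a long GT repeat and has 0 genes among its listed accessions, so it may not read Trim25.

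Stat2, the one factor of the ISRE-binding complex among the members, read 3.56 and 3.49 and 3.40 and 3.37 in scrambled cells with and without IL-7. In sponge cells Stat2 read 3.54 and 3.53 with IL-7 and 3.56 and 3.41 without it. All 8 arrays lie within 0.19, and Stat2 was called in no comparison. Ifi35, Xaf1, Ifi44 and Ifi27l2a were not called in either withdrawal.

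The second comparison made the same contrast in sponge cells. Zbp1, Mx2, Cmpk2, Gbp2, Ddx58, Isg15 and Parp14 rose and Ifit2 fell, so 8 of 32 members were called, 25% of them, beside 23.2% of all features. By direction, 7 members were higher, where 7.92% of all features were, and 1 was lower, against 15.2%. The members' median was 0.14, beside -0.06 over all features. Of the 4 GTPases 1 rose, and of the 3 antigen processing genes 0 were called by limma, though 2 had an unadjusted p under 0.05. The 2 withdrawals use separate arrays, and the number of calls depends on the arrays kept: it was 3 to 9 when 1 array was left out, as 1738 to 5141 of all features were called.

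**Figure D3:**
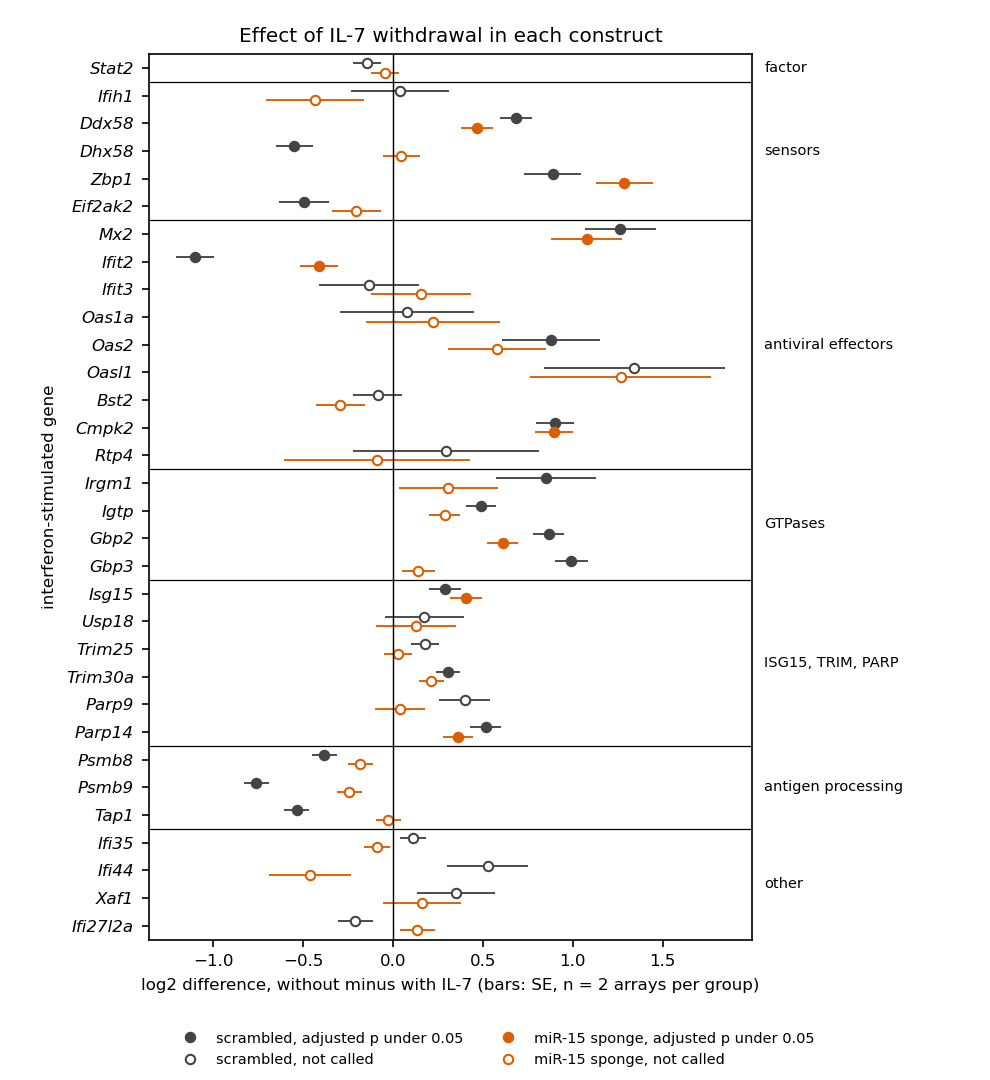
Log2 difference without minus with IL-7 (x axis) for 32 members (y axis, grouped by role), in scrambled (dark) and miR-15 sponge cells (orange). Bars are SE with 2 arrays per group, and filled points have an adjusted p under 0.05. Mx2, Cmpk2 and Zbp1 are high in both constructs, whereas Gbp3, Tap1, Psmb9 and Dhx58 lie closer to 0 in sponge than in scrambled cells, and Psmb8 is above 0 in both after quantile normalization.

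Whether the 2 withdrawal effects differ was tested as an interaction. The difference was called for Gbp3 (lower in sponge cells) and for Psmb9 and Tap1 (higher), so 3 of 32 members, or 9.38%, beside 5.27% of all features. Over all features 4.32% were called higher and 0.952% lower. The members' median was -0.12, beside -0.04 over all features. With the replicate block 0 members and 0 of all features were called by limma. Leaving out 1 array gave 0 to 3 called members, and 0 in 6 of the 8 such fits.

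The third comparison set sponge against scrambled cells in IL-7. No member was called by limma, where 1.13% of all features were, and 8 (25%) had an unadjusted p under 0.05, beside 19.5% of all features. The members' median was -0.02, beside 0.01 over all features. Gbp2 came closest, with -0.58 ± 0.09 (adjusted p = 0.0538), and was called with normexp and with the filter that asks for all 8 arrays above background. Without replicate 2 of the scrambled cells with IL-7, Oasl1 was called instead. Oasl1 was well above background on 0 arrays of either group compared here, so that call carries no support. Tap1 differed by 0.31 ± 0.07 (adjusted p = 0.11) and Psmb9 by 0.20 ± 0.07 (adjusted p = 0.21).

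The fourth comparison set sponge against scrambled cells after withdrawal, and shares its scrambled arrays with the first. Here 6 members were higher in sponge cells and 7 lower, 40.6% of 32, beside 32.1% of all features, of which 16.8% were higher and 15.3% lower. The median was -0.10, beside -0.05 over all features. Tap1 was higher by 0.82 ± 0.07 (1.76-fold, adjusted p = 0.00133) and Psmb9 by 0.72 ± 0.07 (1.64-fold, adjusted p = 0.0015), while the dimmer Psmb9 probe gave 0.32 ± 0.14 and was not called. Eif2ak2, Ifit2 and Dhx58 were also higher, by 0.64 ± 0.14, 0.54 ± 0.11 and 0.38 ± 0.10. Ifi27l2a, a small interferon-induced protein, was higher by 0.50 ± 0.10 (adjusted p = 0.0124). Psmb8 was not called (0.21 ± 0.07, adjusted p = 0.0676).

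On the lower side, Gbp3 differed by -0.93 ± 0.09 (adjusted p = 0.00158) and Gbp2 by -0.84 ± 0.09 (adjusted p = 0.00173). Mx2 differed by -0.75 ± 0.20 (adjusted p = 0.0353, and 0.0582 with the replicate block), or -0.39 with normexp. Ddx58 differed by -0.54 ± 0.09 (adjusted p = 0.00691), and its other probe by -0.42 ± 0.14, not called (adjusted p = 0.0683). Ifi44, an interferon-induced cytoplasmic protein, read -4.93 and -4.84 and -4.36 and -4.36 in scrambled cells with and without IL-7, and -5.07 and -4.96 and -5.84 and -5.11 in sponge cells. It was well above background on both scrambled arrays without IL-7, on 1 sponge array without it and on 0 with it. Ifi44 thus entered the fit only through the group where it is high, so its call among the lower members carries no support. The difference of sponge cells without IL-7 was -1.12 ± 0.23, or -0.33 with normexp. Parp14 and Trim25 differed by -0.34 ± 0.09 and -0.32 ± 0.08, but the other Trim25 probe, with the GT repeat, read 0.20 in the opposite direction. Xaf1, a gene of apoptosis control, was not called on its brighter probe, and its other probe gave -0.77 ± 0.17 (adjusted p = 0.0193).

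**Figure D4:**
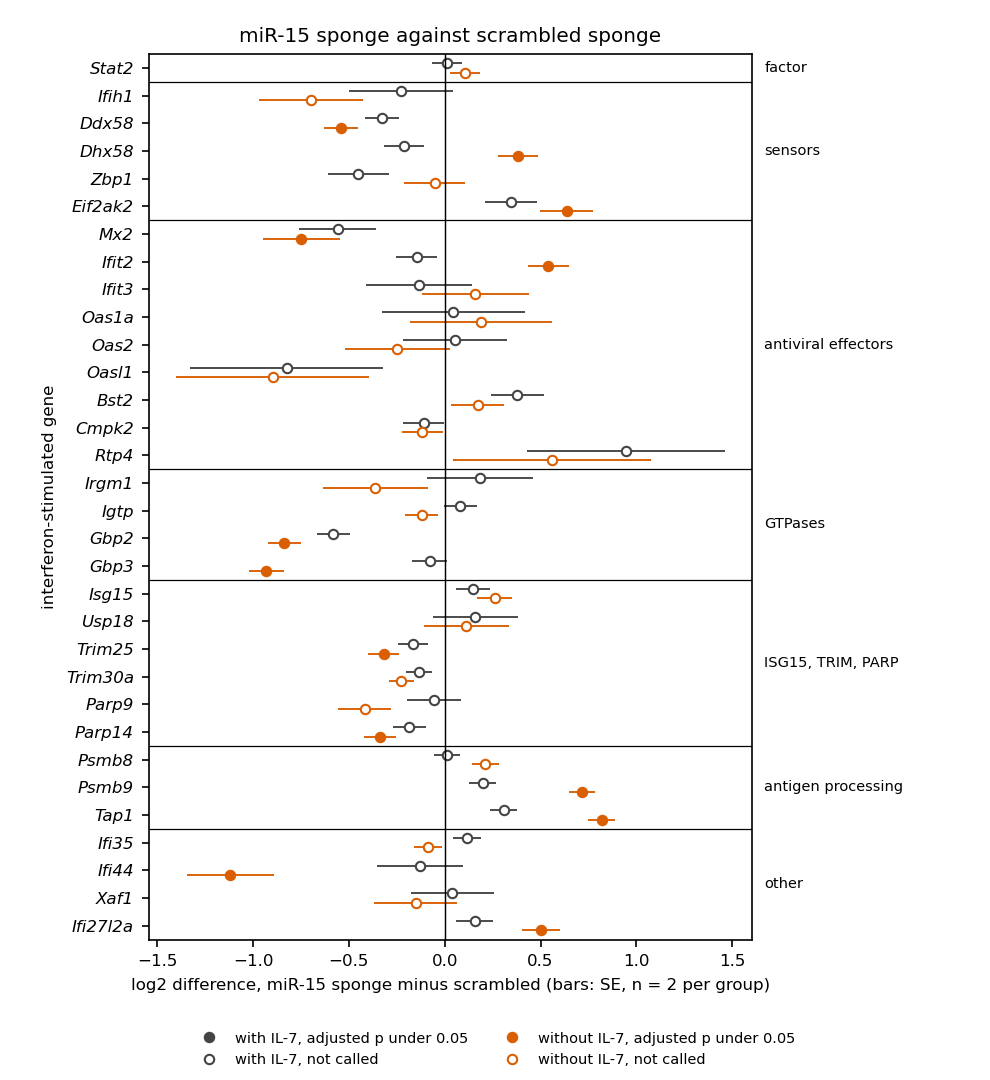
Log2 difference of miR-15 sponge minus scrambled cells (x axis) for 32 members (y axis, grouped by role), with IL-7 (dark) and without (orange). Bars are SE with 2 arrays per group, and filled points have an adjusted p under 0.05. Every point with IL-7 is open, and without IL-7 Tap1 and Psmb9 lie on the right and Gbp2, Gbp3 and Mx2 on the left. Ifi44, also on the left, entered the fit only through the scrambled group without IL-7.

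Upstream of the members, the interferon genes themselves were measured in part. Ifna1, Ifna2 and Ifnl3 were well above background on all 8 arrays, at -2.98 to -2.46, -5.00 to -3.54 and -1.97 to -1.53. Ifnb1, Ifna4, Ifnk and Ifng were well above background on 0 of 8 arrays and Ifne on 1. Of the 3 tested, Ifna1 was called once, lower in sponge cells without IL-7 with a difference of -0.44 ± 0.11 (adjusted p = 0.0308, and 0.0503 with the replicate block), or -0.29 with normexp, not called (adjusted p = 0.0614). Among 6 receptor chains tested, Ifngr2, a chain of the interferon gamma receptor, rose by 0.50 ± 0.09 after withdrawal in scrambled cells and differed by -0.63 ± 0.09 in sponge cells without IL-7. Of 11 kinases and factors tested, 5 rose and 0 fell in scrambled cells, 4 rose and 0 fell in sponge cells, and 5 were lower and 0 higher in sponge cells without IL-7. Over all features 48.1%, 23.2% and 32.1% were called in these comparisons, in either direction. Irf9, the DNA-binding partner of Stat2, rose by 0.98 ± 0.08 in scrambled and 0.56 ± 0.08 in sponge cells. Irf1 rose by 0.56 ± 0.08 and 0.31 ± 0.08, and Irf5 by 0.90 ± 0.10 and 0.45 ± 0.10. For Irf1 the adjusted p in sponge cells was 0.0593 with the replicate block, and its rise there was 0.47 after quantile normalization.

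Of 7 brakes on the pathway, 1 rose and 3 fell in scrambled cells, where 20.7% of all features rose and 27.4% fell. Socs1, an inhibitor of JAK kinases, rose by 2.50 ± 0.13 (5.66-fold, adjusted p = 0.000234) in scrambled and 1.51 ± 0.13 in sponge cells. These effects differed by -0.99 ± 0.18 (adjusted p = 0.043, and 0.0556 with the replicate block). Ptpn6, the phosphatase SHP-1, fell by 0.72 ± 0.08 in scrambled cells, or by 0.40 after quantile normalization, and Ptpn11 and Pias1 fell by 0.32 ± 0.08 and 0.25 ± 0.07, calls that these last genes lost after quantile normalization. In the sensing pathway upstream of interferon, 8 genes were tested, and in scrambled cells Traf3 rose by 0.57 ± 0.07 and Ticam1 by 0.54 ± 0.08, while Tlr7, an endosomal RNA receptor, fell by 1.28 ± 0.16. Mavs, the adaptor of RIG-I, was called lower in sponge cells without IL-7, with -0.31 ± 0.07.

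Further interferon-stimulated genes outside the 37 also moved both ways. Of 46 tested among 51 listed, 17 rose and 9 fell in scrambled cells, with a median of 0.17, and 10 rose and 3 fell in sponge cells, with a median of 0.00. Over all features 20.7% rose and 27.4% fell in scrambled cells, and 7.92% and 15.2% in sponge cells, with medians of -0.02 and -0.06. Between the constructs, 2 were lower in sponge cells with IL-7, where 1.13% of all features were called. Without it 9 were lower and 5 higher, beside 15.3% and 16.8% of all features. Gbp4, another guanylate-binding protein, rose by 2.51 ± 0.11 in scrambled and 1.69 ± 0.11 in sponge cells, effects that differed by -0.82 ± 0.16 (adjusted p = 0.046, and 0.0715 with the replicate block). Ifi30, a lysosomal thiol reductase, rose by 1.03 ± 0.11 and 0.42 ± 0.11. With IL-7, Gbp4 and Ifi30 each differed by -0.79 in sponge cells, with an adjusted p of 0.0465 for Gbp4, or 0.0861 with the replicate block. With normexp the Gbp4 difference was -0.45 and not called (adjusted p = 0.079). Samd9l rose by 1.15 ± 0.08 and 0.74 ± 0.08. Ifi47, a GTPase of the immunity-related family, fell by 0.95 ± 0.07 and 0.77 ± 0.07, against the rise of Irgm1 and Igtp in scrambled cells.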

How the data were processed

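The authors deposited 1 scanner table for each of 8 one-colour arrays, whose processed signal is a linear intensity, background subtracted and detrended within the array, per the file headers. Agilent Feature Extraction was used, version 10.7.1.1 per the submitters' processing notes and 10.7.3.1 per the file headers. A deposited table of processed values, also intensity, served as an alternative. Here log2 of the processed signal minus each array's 75th percentile was averaged over spots of a probe, without control and outlier spots. Probes above background in both replicates of some group, by the deposited flags, were kept (30963 of 55681), and the brightest kept probe stood for a gene. Of the 37 members, 32 were tested. The 4 group means were fitted with limma 3.58.1 in R 4.3.3 (two-sided, Benjamini-Hochberg over 21320 features), and the procedure was tested on simulated data. An SE pools the spread of all 4 groups.

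The labels' design text names separate experiments, and replicate numbers were taken to mark them and to pair the groups. The replicate differences correlated at only 0.0177 to 0.131 between groups, so the data themselves show little pairing. Values on each array are printed for up to 8 called, non-overlapping members of largest difference per comparison, plus Stat2, Isg15, Irgm1 and Psmb8. Pathway genes are named where called, up to 4 per list by smallest p; 1 such gene is not reported here. The members and lists were chosen with earlier results of these data known.

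The alternatives were quantile normalization, the deposited value table, normexp (offset 50), no filter and a stricter filter on dim probes, the mean over a gene's probes, the replicate block, only the 2 groups compared, and leaving out each array. The number of arrays limits the precision. No exon was assigned to a probe.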

Additional observations from a re-analysis of the deposited data

Results flagged for a closer look

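For 3 members the effect of IL-7 withdrawal differed between the constructs by the interaction test, taken as sponge minus scrambled. The guanylate-binding protein gene Gbp3 rose in scrambled cells, and its difference between effects was -0.85. The difference was 0.52 for the immunoproteasome gene Psmb9 and 0.51 for its divergent neighbour Tap1, both of which fell in scrambled cells. The same test passed for 2 genes outside the members, the JAK inhibitor Socs1 at -0.99 and the guanylate-binding protein gene Gbp4 at -0.82. All 5 genes lost the call with the replicate block. Without replicate 1 of the scrambled cells with IL-7, the array with the most outlier spots, 0 of the 3 members were called.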

How the results depend on the processing

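Of the 18 members called after withdrawal in scrambled cells, 12 were called under all 16 alternatives (Cmpk2, Ddx58, Dhx58, Gbp2, Gbp3, Ifit2, Igtp, Mx2, Parp14, Psmb9, Tap1 and Zbp1). In sponge cells this held for 2 of 8 (Cmpk2, Zbp1), for sponge against scrambled cells without IL-7 for 4 of 13 (Gbp2, Gbp3, Psmb9, Tap1), and for the interaction for 0 of 3. Leaving out each array gave 13 to 19 called members, 3 to 9, 0 to 1 (with IL-7), 4 to 16 and 0 to 3 in these comparisons, and 6770 to 10356, 1738 to 5141, 38 to 1360, 3416 to 7447 and 0 to 1616 of all features. No filter on dim probes gave 4 members for withdrawal in sponge cells and 0 for the interaction, with 2644 and 0 of all features, and the 2 groups alone gave 5 members in sponge cells. With IL-7, normexp and the stricter filter each called 1 member. Normexp moved the members' median to 0.10 in scrambled and -0.010 in sponge cells, below the main 0.29 and 0.14. Of all features with IL-7, 394 were called with normexp, 82 without a filter, 432 with the stricter one, 151 with the replicate block and 4 with the 2 groups alone. For the interaction 1687 were called after quantile normalization, 1716 with the stricter filter and 0 with the replicate block.

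With replicate number as a paired replicate block, 15, 7, 0, 13 and 0 members were called for the withdrawals in scrambled and sponge cells, for the sponge with and without IL-7, and for the interaction, beside 10290, 4558, 151, 6825 and 0 of all features. Slide as a block was not run, since all arrays lay on 1 slide, and the interaction has no fit with only 2 groups. Only uncalled values and Psmb8 changed sign. With quantile normalization, and then with the deposited values, Psmb8 gave 0.031 and 0.030 in scrambled cells, 0.0997 and 0.101 in sponge cells, and -0.055 and -0.055 for the sponge with IL-7. Stat2 gave 0.013 and 0.013, 0.086 and 0.086, and -0.048 and -0.049 in the same order. Leaving out 1 array gave -0.031 to 0.054 for Psmb8, -0.026 to 0.045 for Stat2 and -0.26 to 0.62 for Irgm1 for the sponge with IL-7, and -0.12 to 0.025 for Stat2 in sponge withdrawal. For the sponge with IL-7, Stat2 gave -0.034 with normexp and the mean of Irgm1's probes -0.0041. The cause was not tested. Among others, Mx2, Oas2, Ifi44 and Cmpk2 shrank with normexp, and members not above background have no measured change.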
